A study of Mus musculus with 6 samples.

Results

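The collagen gene family was followed in the epididymal white fat of 3 transgenic and 3 wild type mice. Its members were all probe sets paired with exactly 1 gene whose symbol reads Col, a number, a and a number, which gave 82 of the 45101 probe sets and 42 of the 18194 genes named in this way. The transgenic group carried aP2-nSREBP1c, the nuclear form of the lipid synthesis regulator SREBP-1c driven by the aP2 (Fabp4) promoter, which is active in fat cells and also in macrophages. The labels of transgenic mice 2 and 3 spell the transgene aP2-nSrebp1 and aP2-SREBP1c, and all were taken as the same line. The controls were litter-matched wild type mice. Both groups shared the C57BL6;SJL background, male sex, an age of 10 weeks and the tissue, and the labels call the transgenic mice lipodystrophic. Total RNA was measured on Affymetrix MOE430v2.0 arrays, 1 per mouse, and the authors' MAS5 signals, which are linear intensities, are given here per mouse in the order of the replicate numbers.

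Collagens are secreted proteins in which 3 chains wind into a triple helix. Fibrillar collagens (types I, II, III, V, XI, XXIV and XXVII) assemble into the fibres that carry tension, whereas type IV collagen forms the sheet-like network of basement membranes. In white fat every adipocyte is wrapped in a basement membrane, and a looser stroma of fibrillar and type VI collagen, made largely by fibroblastic cells, lies around it. The other members decorate fibrils, anchor basement membranes, form short-chain networks or span the plasma membrane. By these classes the array held 21 fibrillar probe sets (11 genes), 12 of type IV (6 genes) and 49 others (25 genes).

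The stretches upstream of 3 collagen genes are shown because Col27a1 carried the clearest difference between the groups, and because the neighbouring type IV genes Col4a5 and Col4a6, which are read in opposite directions, gave different values. Each sequence is the 250 bases before the annotated start in RefSeq's GRCm38.p6 annotation, written 5′ to 3′ on the gene's strand. Capitals mark a GC box (GGGCGG or its reverse complement CCGCCC) and a CCAAT box (CCAAT or ATTGG).
Col27a1, chr4:63215162-63215411, plus strand: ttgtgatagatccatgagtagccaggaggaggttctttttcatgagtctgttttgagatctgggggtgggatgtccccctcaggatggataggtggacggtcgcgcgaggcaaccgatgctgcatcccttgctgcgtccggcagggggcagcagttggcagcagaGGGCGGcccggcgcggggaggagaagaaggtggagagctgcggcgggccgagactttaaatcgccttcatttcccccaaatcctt
Col4a5, chrX:141475169-141475418, plus strand: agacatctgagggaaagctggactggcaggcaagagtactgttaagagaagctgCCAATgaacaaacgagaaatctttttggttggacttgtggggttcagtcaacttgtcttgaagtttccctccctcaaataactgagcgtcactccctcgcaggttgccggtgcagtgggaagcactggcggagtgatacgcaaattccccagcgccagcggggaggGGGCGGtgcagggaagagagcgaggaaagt
Col4a6, chrX:141474077-141474326, minus strand: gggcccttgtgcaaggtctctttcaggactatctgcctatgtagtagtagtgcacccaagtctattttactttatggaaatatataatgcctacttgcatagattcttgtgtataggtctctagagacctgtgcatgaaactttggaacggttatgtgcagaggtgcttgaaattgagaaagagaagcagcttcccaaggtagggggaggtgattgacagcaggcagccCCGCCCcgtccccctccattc
Each of the 3 windows held 1 GC box, and only that of Col4a5 among them held a CCAAT box. Neither TATAAA nor the sterol regulatory element TCACNCCAC, the kind of site SREBP proteins bind, occurred in them on either strand. The table held 36 such windows of 33 collagen genes. A GC box lay in 21 of these (58.3%) against 32.7% of all 32851 windows, a CCAAT box in 13 (36.1% against 33.8%), TATAAA in 5 (13.9% against 12.4%) and TCACNCCAC in 1 (2.78% against 1.05%), that of Col17a1. These are matches of letters in a short window and show no binding.

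After the 64 control probe sets and the dimmest 40% of the rest were left out, 27023 were tested, among them 49 collagen probe sets of 30 genes. The other 33 collagen probe sets lay between 0.8 and 74.8 on any array, and 20 of them had a mean signal under 16. The array of transgenic mouse 2 stood apart: its 3′ to 5′ signal ratio, a sign of RNA integrity, was 122 for actin and 55.9 for Gapdh, against 1.11 to 1.81 and 0.772 to 1.22 on the other 5 arrays. The ratio of Pcx, another control, did not set it apart, at 14.1 against 3.06 to 52.0. Its median signal was 37.7 against 53.4 to 65.4. Counts and values are therefore given over all 6 mice and over the 5 mice without it, and an unadjusted p refers to the 6 mice. The part that RNA quality plays in the values of this mouse was not tested.

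Markers of the cell types that fat can hold also differed between the groups. The summed signal of 7 adipocyte markers was 67272 to 75094 in wild type and 43894 to 57156 in transgenic mice. For 8 macrophage markers it was 17572 to 20563 and 25689 to 33726. For 6 endothelial markers it was 5812 to 6318 and 1588 to 4488, for 6 smooth muscle and pericyte markers 9251 to 11001 and 6271 to 7284, and for 6 mesothelial markers 4813 to 5516 and 670.3 to 1968. Only the sums of the 9 fibroblast and progenitor markers overlapped among these, at 20947 to 23721 and 17458 to 21153. Within a list the markers did not all move alike. Of the 9 fibroblast and progenitor markers 4 were lower without overlap (44.4% against 15.3% of all tested) and 0 higher. These were Pi16, Dpp4, Mfap5 and Cd34, at log2 fold changes of -3.35, -1.45, -1.16 and -0.93. The bright Dcn and Dpt overlapped at -0.23 and -0.17, and Lum was at 0.57. Over 6 mice 1 of the 9 fell (11.1% against 1.3%), and over 5 mice 3 fell (33.3% against 6.23%). The adipocyte markers Fabp4, Lpl and Cd36 overlapped between the groups, at log2 fold changes of 0.002, -0.003 and -0.07, and the other 4 were lower without overlap. Pdgfrb, a pericyte marker, was higher without overlap at 1.03 ± 0.28, while 5 of its list of 6 lay below 0 over 6 mice, and 3 over 5. Of the macrophage markers 2 of 8 lay below 0 over 6 mice, and 0 over 5. Of the epididymal and epithelial markers, 3 of 6 were tested (541.0 to 786.8 and 363.1 to 397.0), and of those that define the epididymis Lcn5 was too dim to test and Crisp1 had no probe set named here. Of the cartilage and bone markers, 2 of 6 were tested (32.5 to 108.1 and 104.4 to 133.8), and Ibsp, a marker of bone, was too dim to test. No tested marker was listed at 0. Transgenic mouse 2 gave the lowest transgenic sum of the adipocyte, endothelial, mesothelial, epithelial, and cartilage and bone markers. The median log2 fold change of the adipocyte, endothelial and mesothelial markers was -0.93, -1.15 and -2.02 over 6 mice. Over 5 mice it was -0.23, -0.66 and -1.34. In bulk tissue fewer cells of a type and less RNA per cell cannot be told apart, and the part of these shifts in the collagen values was not tested.

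Over all 6 mice, 1 collagen probe set passed limma's test at an adjusted p under 0.05: Col27a1 rose in the transgenic mice, and no collagen fell. Among all tested probe sets 2.97% passed, 1.67% higher and 1.3% lower, so 1 of 49 (2.04%) is near the background. At an unadjusted p under 0.05 the collagens gave 4 higher and 8 lower, 8.16% and 16.3% of 49 against 7.76% and 8.66% of all tested. Over 5 mice, 4 collagen probe sets rose and 6 fell, which is 8.16% and 12.2% of 49 against 6.96% and 6.23% of all tested (13.2% in either direction). With quantile normalization of the 5 arrays the split was 5 higher and 14 lower, 10.2% and 28.6% against 8.94% and 9.47% of all tested. The 3 wild type and 3 transgenic values did not overlap in 15 collagen probe sets, 5 higher and 10 lower, or 30.6% against 27.2% of all tested (11.9% higher and 15.3% lower).

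The median log2 fold change (transgenic minus wild type) of the 49 probe sets was -0.34, against -0.09 for all tested, and 33 of 49 lay below 0 (67.3% against 57.1%). Over 5 mice the medians were -0.25 and 0.03, with 30 of 49 below 0 (61.2% against 47.6%). By class the median was 0.07 for fibrillar, -0.43 for type IV and -0.50 for other collagens, and 0.16, -0.30 and -0.50 over 5 mice. Quantile normalization moved the median of all tested probe sets to 0.02, and centring on array medians to 0.13, with class medians of 0.07, -0.45 and -0.43 and of 0.30, -0.20 and -0.27. The fibrillar median lay near 0 and turned negative without transgenic mouse 3 (-0.08) or wild type mouse 2 (-0.03). The plot of fold changes shows each member in both fits.

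**Figure D1:**
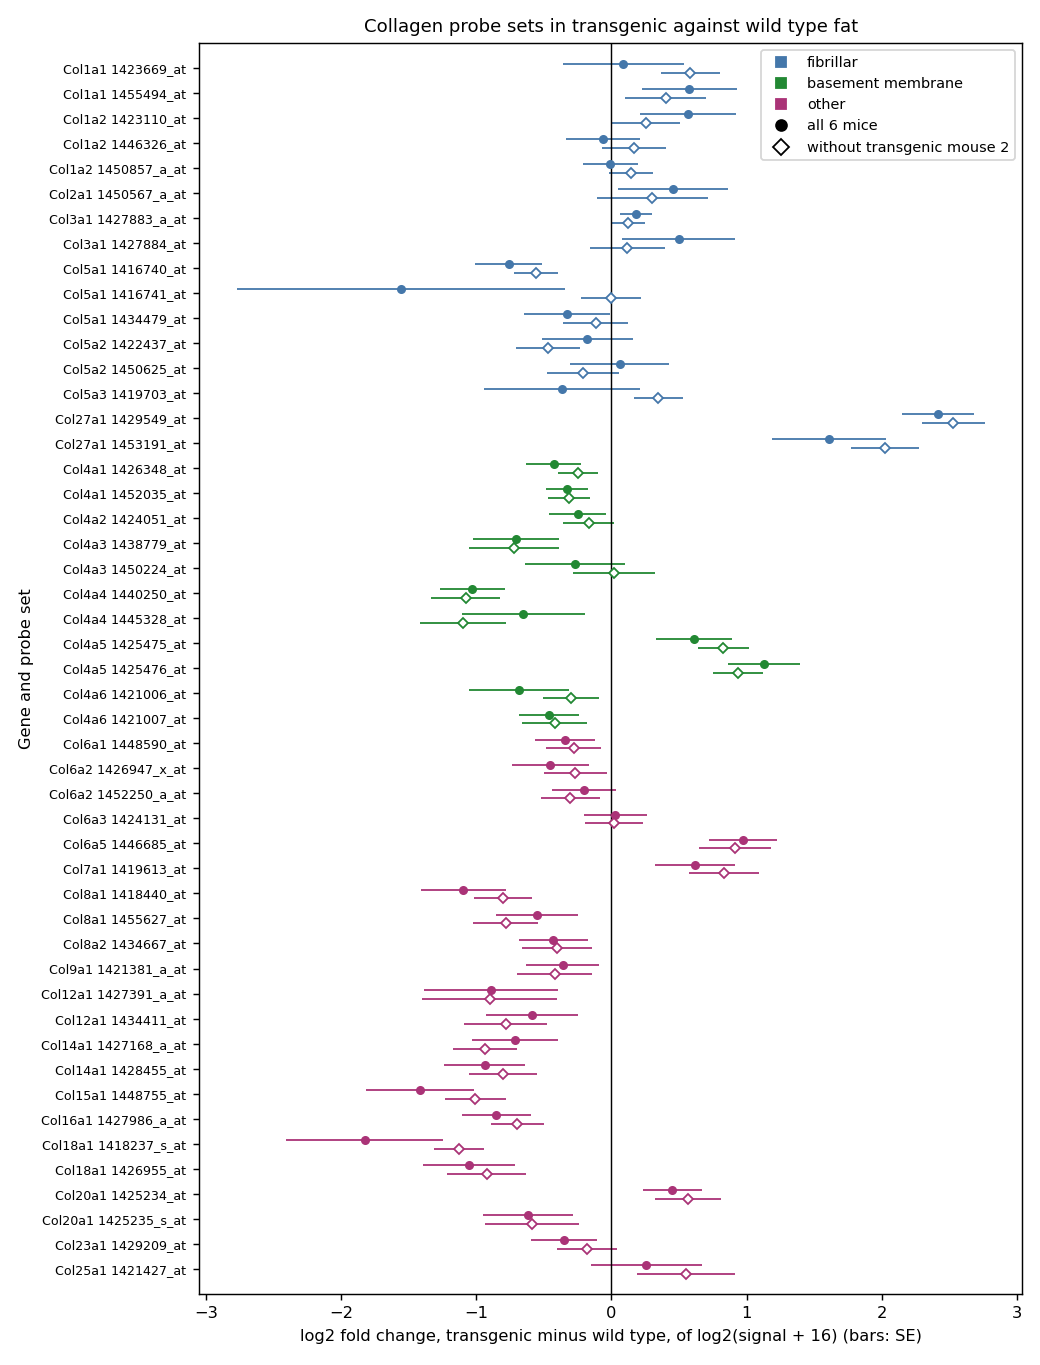
Each row is 1 of the 49 tested collagen probe sets. The horizontal axis gives the log2 fold change, transgenic minus wild type, of log2(signal + 16) with its SE as bars; filled circles use all 6 mice, open diamonds leave out transgenic mouse 2, and colour gives the class. Both Col27a1 probe sets lie farthest to the right, the Col4a5 pair is the only type IV gene right of 0 in both fits for every probe set, and most other collagens lie left of 0.

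Among the fibrillar collagens 1 of 16 tested probe sets rose over 6 mice and none fell; 2 rose over 5 mice, both of Col27a1 (12.5% against 6.96% of all tested). Col27a1 encodes the type XXVII chain, a fibrillar collagen with a shorter triple helix known from cartilage. Its probe set 1429549_at gave signals of 79.2, 92.2 and 53.5 in the wild type mice and 484.7, 392.8 and 519.0 in the transgenic mice. All 3 transgenic mice lay above all wild type mice. The log2 fold change was 2.42 ± 0.27 (SE, n = 3 and 3; adjusted p = 0.00662 by limma), or 5.35-fold, and 2.53 ± 0.23 (5.79-fold, adjusted p = 0.000148) over 5 mice. Leaving out wild type mouse 1, 2 or 3 raised the limma adjusted p to 0.0591, 0.0521 or 0.0512, which ends the call.

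The second Col27a1 probe set, 1453191_at, is the brighter one and gave 141.9, 145.2 and 105.9 in wild type and 735.3, 233.0 and 453.8 in transgenic mice. The groups again did not overlap, and transgenic mouse 2 was the lowest of its group. Over 6 mice its log2 fold change of 1.61 ± 0.42 did not pass (limma adjusted p = 0.114). It passed over 5 mice at 2.03 ± 0.25, or 4.07-fold (limma adjusted p = 0.000751). The cartilage genes Acan and Sox9, whose tested probe sets were dim, were not called in either fit. Sox9 was higher without overlap, at 48.6, 20.8 and 41.1 in wild type and 68.1, 56.2 and 70.2 in transgenic mice. Its log2 fold change was 0.65 ± 0.27 over 6 mice (limma adjusted p = 0.304) and 0.73 ± 0.30 over 5 (0.16). Acan overlapped between the groups, at 0.30 ± 0.43 and 0.34 ± 0.45.

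Collagens I, II, III and V did not pass in either fit. Col1a1 and Col1a2 encode the chains of type I collagen, the main fibre protein of connective tissue. Col1a1 (1423669_at) was 2473.0, 2133.3 and 2622.3 in wild type and 2774.7, 1275.4 and 4690.6 in transgenic mice, so that the transgenic values spanned the wild type ones. Its log2 fold change was 0.09 ± 0.45 over 6 mice (limma adjusted p = 0.935) and 0.58 ± 0.22 over 5 (0.126). The other Col1a1 probe set gave 0.58 ± 0.35 over 6 mice and 0.40 ± 0.30 over 5. The brightest Col1a2 probe set (1450857_a_at) was 6964.0, 5493.8 and 6689.5 against 6133.1, 5094.9 and 8046.1, a log2 fold change of -0.01 ± 0.20 over 6 mice and 0.15 ± 0.17 over 5. The other Col1a2 probe sets lay at 0.57 ± 0.36 and -0.06 ± 0.27 over 6 mice, and at 0.26 ± 0.25 and 0.17 ± 0.24 over 5.

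Col3a1 encodes type III collagen, the partner of type I in thin reticular fibres. Its probe set 1427883_a_at was at 9553.3, 8547.1 and 9105.6 in wild type and 9530.5, 11079.3 and 10239.2 in transgenic mice. The groups overlapped only through transgenic mouse 1, and the log2 fold change of 0.18 ± 0.12 did not pass (limma adjusted p = 0.5; 0.12 ± 0.12 over 5 mice). The second Col3a1 probe set stood at 0.50 ± 0.42, and at 0.12 ± 0.28 over 5 mice. Col2a1, the type II chain of cartilage, was dim at 14.5 to 75.5 over the 6 arrays, with a log2 fold change of 0.45 ± 0.41 (0.30 ± 0.41 over 5 mice).

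Type V collagen sits inside type I fibrils and limits their width. Col5a1 (1416740_at) was 2101.2, 1735.4 and 1798.7 in wild type and 1233.8, 827.5 and 1295.1 in transgenic mice, without overlap. It gave a log2 fold change of -0.76 ± 0.25 over 6 mice (limma adjusted p = 0.189) and -0.56 ± 0.16 over 5 (0.0507), so it did not pass. The other Col5a1 probe sets overlapped between the groups, at -0.33 ± 0.32 and -1.56 ± 1.22; the latter (1416741_at) rested on a signal of 5.2 in transgenic mouse 2 against 499.8 and 547.1 in mice 1 and 3. Without that mouse they were at -0.12 ± 0.24 and -0.01 ± 0.22. Col5a2 gave -0.18 ± 0.34 and 0.06 ± 0.36 over 6 mice, and -0.47 ± 0.24 and -0.21 ± 0.27 over 5, so the sign of the latter turned.

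Col5a3, another type V chain, was 5439.4, 3775.0 and 4231.2 in wild type mice and 5149.2, 1265.7 and 6174.9 in transgenic mice. Transgenic mouse 2 was the lowest of all 6 and mouse 3 the highest. The log2 fold change was -0.37 ± 0.58 over 6 mice and 0.35 ± 0.18 over 5 (limma adjusted p = 0.261), so its sign turned with that array. Col11a1, Col11a2 and Col24a1, the remaining fibrillar genes, were too dim to test.

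**Figure D2:**
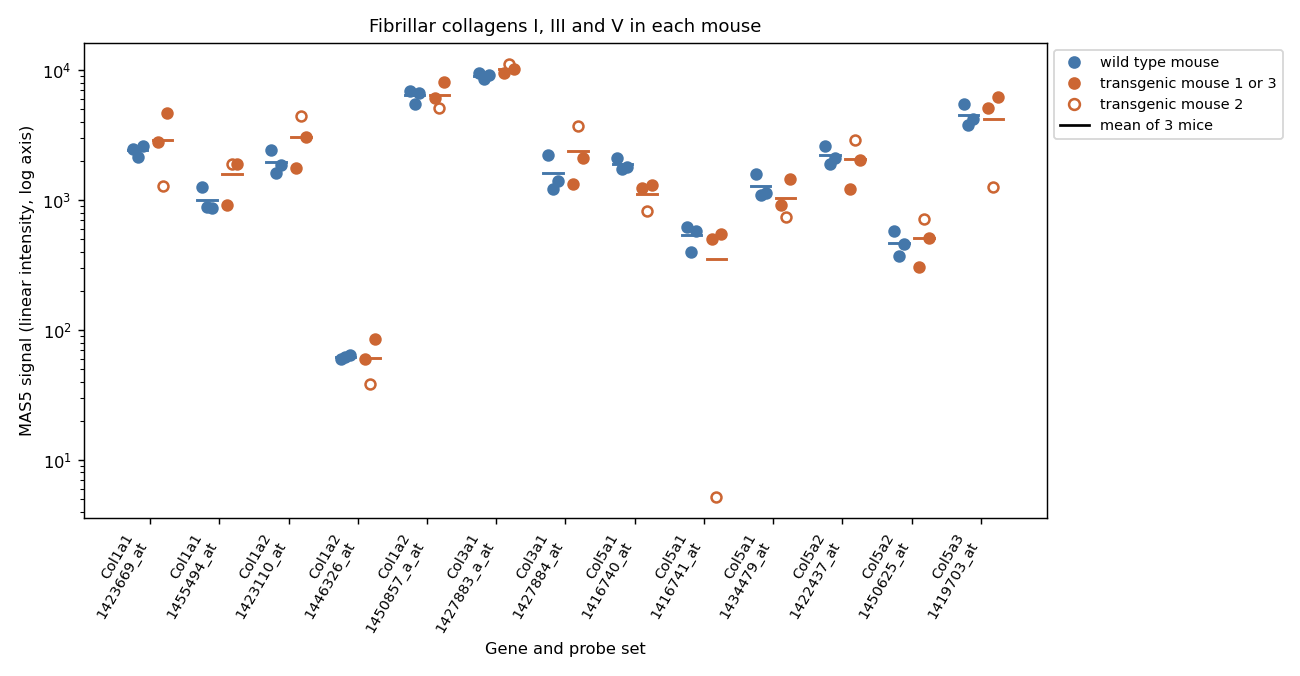
MAS5 signal (linear intensity on a log axis) of each mouse for the 13 tested probe sets of collagens I, III and V; blue marks wild type, filled orange transgenic mice 1 and 3, open orange transgenic mouse 2, and short lines the mean of 3 mice. The groups overlap in all but Col5a1 1416740_at, and transgenic mouse 2 lies low in some probe sets of a gene and high in others, as for Col1a1 (1275.4 in 1 and 1908.7 in the other).

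Of the 11 tested type IV probe sets none passed over 6 mice, and 1 was higher and 1 lower at an unadjusted p under 0.05, each 9.09% against 7.76% and 8.66% of all tested. Over 5 mice 2 rose, both of Col4a5, and 1 of Col4a4 fell (18.2% and 9.09% against 6.96% and 6.23%). Type IV chains form set trimers: Col4a1 with Col4a2 in nearly all basement membranes, Col4a3 with Col4a4 and Col4a5, and Col4a5 with Col4a6. The ubiquitous chains did not pass in either fit: Col4a1 (1452035_at) was 8947.3, 6822.5 and 7663.0 against 5763.8, 6051.9 and 6762.3. These groups did not overlap, though the highest transgenic value lay close to the lowest wild type one. Its log2 fold change was -0.33 ± 0.15 (limma adjusted p = 0.351; -0.31 ± 0.15 over 5 mice), and the other Col4a1 probe set gave -0.43 ± 0.21 (-0.25 ± 0.15 over 5 mice).

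Col4a2 was 4700.0, 3785.9 and 4229.3 in wild type and 3070.9, 3169.4 and 4585.9 in transgenic mice, with overlap through transgenic mouse 3. The log2 fold change was -0.25 ± 0.21 (limma adjusted p = 0.583), and -0.17 ± 0.19 over 5 mice (0.638).

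Col4a5 stood on the other side of 0. Probe set 1425476_at gave 579.9, 553.6 and 580.0 in wild type mice and 958.6, 1675.1 and 1274.3 in transgenic mice. The wild type values lay close together and all transgenic values were above them. This was a log2 difference of 1.13 ± 0.27 over 6 mice (limma adjusted p = 0.0858) and 0.93 ± 0.18, or 1.91-fold, over 5 mice (0.00986). Probe set 1425475_at gave 283.0, 301.5 and 358.8 against 536.2, 357.2 and 601.8, where transgenic mouse 2 fell just inside the wild type range. It was at 0.61 ± 0.28 over 6 mice (limma adjusted p = 0.343) and rose by 0.83 ± 0.19, or 1.78-fold, over 5 (0.0201).

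Col4a6, whose start lies beside that of Col4a5 in the sequences shown above, did not pass. Its brighter probe set (1421006_at) was 168.6, 197.1 and 199.8 in wild type and 129.2, 58.3 and 173.2 in transgenic mice, a log2 fold change of -0.69 ± 0.37 (limma adjusted p = 0.418; -0.30 ± 0.21 over 5 mice). The second (1421007_at) was 69.3, 94.9 and 82.3 against 65.3, 51.0 and 49.5, without overlap, at -0.46 ± 0.22 (-0.42 ± 0.24 over 5 mice). The difference between the genes was taken within each array as log2 of Col4a5 minus log2 of Col4a6, a comparison chosen after the values were seen. In all 4 pairs of probe sets it was larger in every transgenic than in every wild type mouse. The mean shift over 6 mice ran from 1.07 to 1.82 over the pairs. The exact two-sided permutation p was 0.1 for each (n = 3 and 3), which is the smallest p that 3 against 3 allows. The 4 pairs share 2 probe sets per gene and the same 6 arrays, so they are not separate tests. As the genes were picked for these values, neither the separation nor the p lends support. In the pair with the largest shift, transgenic mouse 2 had the highest Col4a5 signal (1675.1) and the lowest Col4a6 signal (58.3). No shift was taken over 5 mice, where Col4a5 was at 0.93 and 0.83 and Col4a6 at -0.30 and -0.42.

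Col4a3 and Col4a4 encode chains of specialised membranes such as that of the kidney glomerulus, and both were dim in fat. Col4a4 (1440250_at) was 109.9, 95.0 and 99.1 in wild type and 52.7, 45.3 and 28.7 in transgenic mice, without overlap. Its log2 fold change was -1.03 ± 0.24 over 6 mice (limma adjusted p = 0.0833), and it fell by 1.08 ± 0.26 over 5, 2.11-fold (0.0229). A second Col4a4 probe set was at -0.65 ± 0.46 and, over 5 mice, -1.10 ± 0.32 (limma adjusted p = 0.0524). A further one (1425772_at), too dim for the test, read 22.8, 28.1 and 44.4 against 6.0, 2.0 and 8.8 and had an adjusted p of 0.082 by limma when no probe set was filtered out. The Col4a3 probe sets were at -0.71 ± 0.32 and -0.27 ± 0.37 over 6 mice, and at -0.72 ± 0.33 and 0.02 ± 0.30 over 5.

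**Figure D3:**
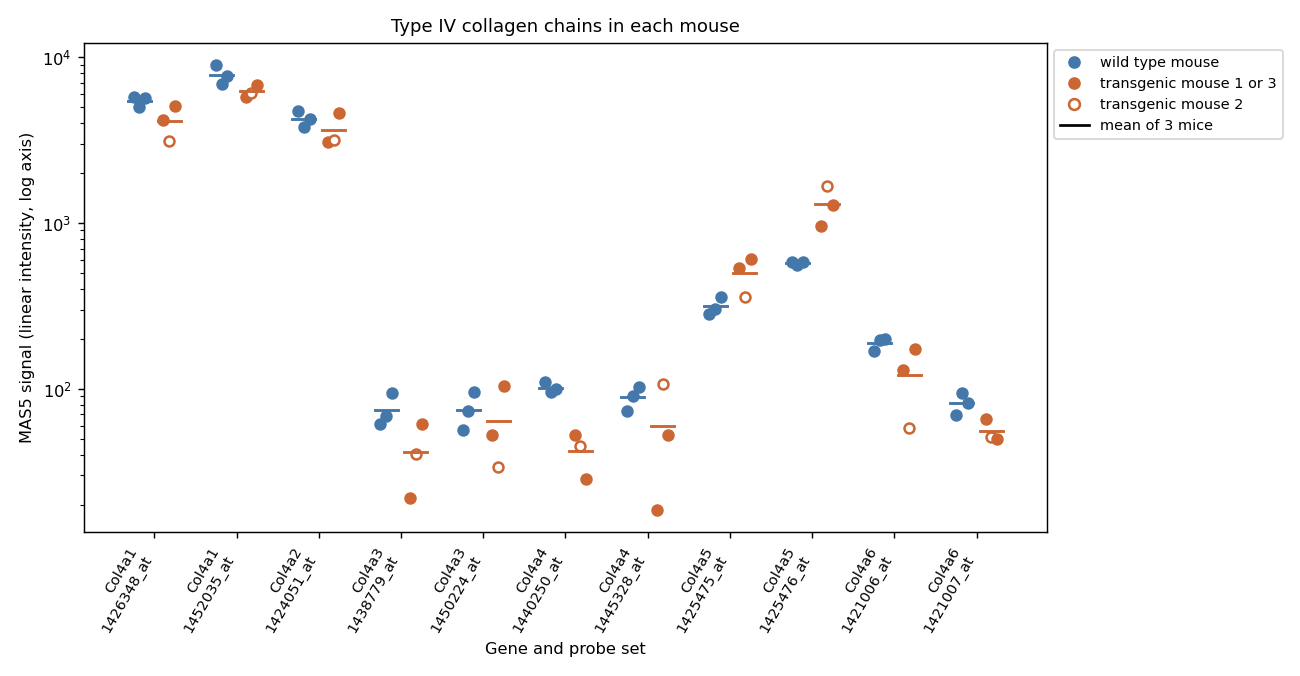
MAS5 signal (linear intensity on a log axis) of each mouse for the tested type IV collagen probe sets; blue marks wild type, filled orange transgenic mice 1 and 3, open orange transgenic mouse 2, and short lines the mean of 3 mice. The transgenic means lie above the wild type means for both Col4a5 probe sets and below them for the other chains.

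The proteins that join type IV collagen into a basement membrane were described beside it, from a list of 19 laminins, nidogens and others of which 17 were tested. None passed over 6 mice, where 9 were lower and 0 higher at an unadjusted p under 0.05, or 52.9% lower against 8.66% of all tested. Over 5 mice 7 fell (41.2% against 6.23%) and none rose. Their median log2 fold change was -0.87, and -0.65 over 5 mice. The groups did not overlap in 11 of the 17, all lower (64.7% against 15.3% of all tested). Nid1, the linker between laminin and type IV collagen, was 5460.5, 5112.1 and 6065.2 in wild type and 2448.1, 3498.3 and 3227.0 in transgenic mice, all transgenic values lying below all wild type ones. It was at -0.87 ± 0.19 over 6 mice (limma adjusted p = 0.0674) and -0.97 ± 0.16 over 5 (0.00405). Sparc, a collagen-binding protein, was at -0.23 ± 0.21 (limma adjusted p = 0.61), and at -0.03 ± 0.15 over 5 mice (0.933). Smoc1, a calcium-binding protein of basement membranes, was at -2.32 ± 0.48 over 6 mice (limma adjusted p = 0.0588) and fell by 1.76 ± 0.18 over 5 (0.000261). Pxdn, the peroxidase that crosslinks type IV collagen, was at -1.08 ± 0.22 over 6 mice (limma adjusted p = 0.055) and fell by 1.17 ± 0.19 over 5 (0.00332).

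Among the other collagens, 22 probe sets of 16 genes were tested. None passed over 6 mice, where 1 was higher (4.55%) and 6 were lower (27.3%) at an unadjusted p under 0.05, against 7.76% and 8.66% of all tested. Over 5 mice 5 fell and none rose, which is 22.7% lower against 6.23% of all tested. These 5 were of Col8a1, Col14a1, Col15a1, Col16a1 and Col18a1.

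Col15a1 and Col18a1 encode the multiplexins, basement membrane proteoglycans whose C-terminal pieces are restin and endostatin. The 3 multiplexin probe sets had a median log2 fold change of -1.42, and of -1.01 over 5 mice. Col15a1 (1448755_at) was 3758.0, 3047.2 and 3004.9 in wild type and 1242.0, 672.9 and 2083.1 in transgenic mice, without overlap. It was at -1.42 ± 0.40 over 6 mice (limma adjusted p = 0.139) and fell by 1.01 ± 0.22, 2.01-fold, over 5 (0.0171).

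Col18a1 (1418237_s_at) was 1547.3, 1386.2 and 1180.6 in wild type and 565.7, 131.1 and 670.2 in transgenic mice. All transgenic values lay below the wild type ones and mouse 2 was lowest. Its log2 fold change was -1.83 ± 0.58 over 6 mice (limma adjusted p = 0.181) and -1.13 ± 0.18, 2.18-fold lower, over 5 (0.00366). The other probe set (1426955_at), also without overlap, was at -1.05 ± 0.34 (limma adjusted p = 0.185) and -0.92 ± 0.29 (0.0733), so that only 1 of the 2 passed. The endothelial and mesothelial marker sums given above were lower in the same mice, and their part in these values was not tested.

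Fibril-associated collagens have interrupted helices and bind to the surface of fibrils. Their 8 tested probe sets had a median of -0.67, and of -0.74 over 5 mice. Col14a1, which coats type I fibrils, was 1056.3, 863.5 and 683.1 against 365.6, 708.4 and 525.1 for probe set 1427168_a_at. Transgenic mouse 2 alone entered the wild type range. The log2 fold change was -0.71 ± 0.32 over 6 mice (limma adjusted p = 0.334), and over 5 mice it fell by 0.94 ± 0.24, 1.92-fold (0.0302). The second Col14a1 probe set (1428455_at), without overlap, was at -0.94 ± 0.30 (limma adjusted p = 0.184) and -0.80 ± 0.25 (0.072).

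Col16a1, a minor fibril-associated chain, was 299.9, 320.2 and 276.2 in wild type and 157.2, 124.1 and 201.0 in transgenic mice, without overlap. It was at -0.85 ± 0.25 over 6 mice (limma adjusted p = 0.156) and fell by 0.70 ± 0.20, 1.62-fold, over 5 mice (0.048). Col12a1, the type XII chain, did not pass at -0.89 ± 0.50 and -0.59 ± 0.34 (-0.90 ± 0.50 and -0.78 ± 0.31 over 5 mice). Col9a1 was at -0.36 ± 0.27 (-0.42 ± 0.28 over 5 mice). The Col20a1 probe sets lay on opposite sides of 0, at 0.45 ± 0.22 and -0.62 ± 0.33, and at 0.57 ± 0.24 and -0.59 ± 0.35 over 5 mice.

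Type VIII collagen forms a hexagonal network under vascular and corneal endothelium. Col8a1 (1418440_at) was 211.0, 166.1 and 163.3 in wild type and 108.4, 44.7 and 84.2 in transgenic mice, without overlap. It was at -1.10 ± 0.32 over 6 mice (limma adjusted p = 0.147) and fell by 0.80 ± 0.22, 1.75-fold, over 5 (0.0394). The second Col8a1 probe set was at -0.55 ± 0.30, and -0.78 ± 0.24 over 5 mice (limma adjusted p = 0.0618). Col8a2 was at -0.43 ± 0.25 (-0.41 ± 0.26 over 5 mice).

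Type VI collagen, the beaded filament around adipocytes, did not pass in either fit. Col6a1 was 6167.1, 4591.5 and 4377.3 against 3389.1, 3594.3 and 4964.1, a log2 fold change of -0.34 ± 0.22 (limma adjusted p = 0.49; -0.28 ± 0.21 over 5 mice). Col6a2 gave -0.45 ± 0.29 and -0.20 ± 0.24, and over 5 mice -0.27 ± 0.24 and -0.30 ± 0.22. Col6a3, whose cleaved end is endotrophin, was 2922.4, 2140.1 and 2237.6 against 1983.0, 2485.7 and 3005.1, at 0.03 ± 0.23 (limma adjusted p = 0.963; 0.02 ± 0.21 over 5 mice). In each of these genes the transgenic values reached into the wild type range.

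Col6a5, a minor type VI chain, was dim and higher without overlap, at 48.7, 39.4 and 73.2 against 106.1, 130.3 and 120.0. It missed the threshold at 0.98 ± 0.25 over 6 mice (limma adjusted p = 0.111) and 0.91 ± 0.26 over 5 (0.0512). Col7a1, the anchoring fibril chain of skin, was at 0.62 ± 0.30 (limma adjusted p = 0.364), and over 5 mice at 0.83 ± 0.26 (0.0662). The transmembrane collagens Col23a1 and Col25a1 were at -0.35 ± 0.25 and 0.26 ± 0.41, and over 5 mice at -0.18 ± 0.22 and 0.55 ± 0.37. Among the untested dim genes were Col10a1 of growth cartilage, Col17a1 of skin hemidesmosomes and the transmembrane Col13a1.

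**Figure D4:**
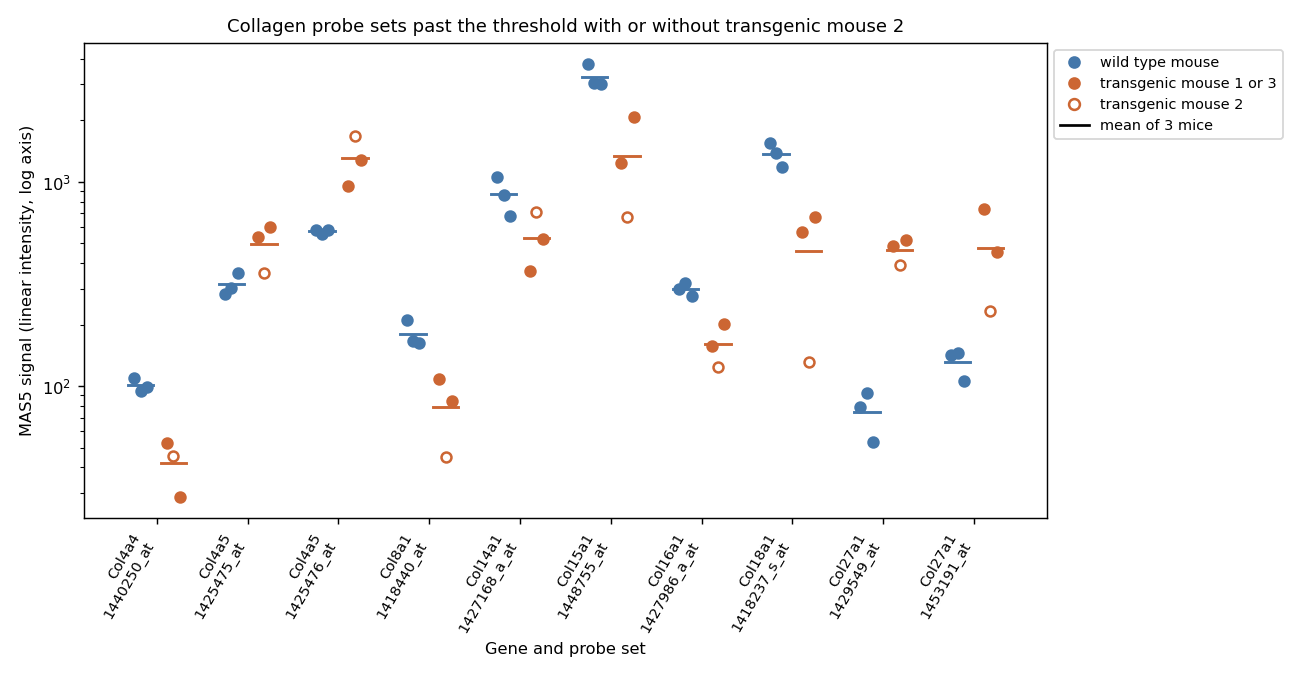
MAS5 signal (linear intensity on a log axis) of each mouse for the 10 collagen probe sets that passed the test with or without transgenic mouse 2; blue marks wild type, filled orange transgenic mice 1 and 3, open orange transgenic mouse 2, and short lines the mean of 3 mice. The groups do not overlap in 8 of the 10, and transgenic mouse 2 alone enters the wild type range in Col4a5 1425475_at and Col14a1 1427168_a_at. The 10 were picked by the test on these same mice, which favours probe sets without overlap. Among all tested probe sets 27.2% do not overlap.

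The family varied within groups as well. Transgenic mouse 3 was above mouse 1 in 43 of 49 collagen probe sets (87.8%) against 72.8% of all tested, and wild type mouse 1 was the highest of its group in 30 (61.2% against 46.0%). Transgenic mouse 2 lay outside the interval between mice 1 and 3 in 37 of 49 (75.5%), and in 85.5% of all tested. Probe sets of the same gene placed it differently: relative to the mean of mice 1 and 3 it was at log2 -1.49 and 0.53 for Col1a1, at -4.67 and -0.60 for Col5a1, and at -2.10 and -0.39 for Col18a1. Of the 17 genes with more than 1 tested probe set, 14 had all of them on the same side of 0 over 6 mice, and 15 over 5 mice.

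**Figure D5:**
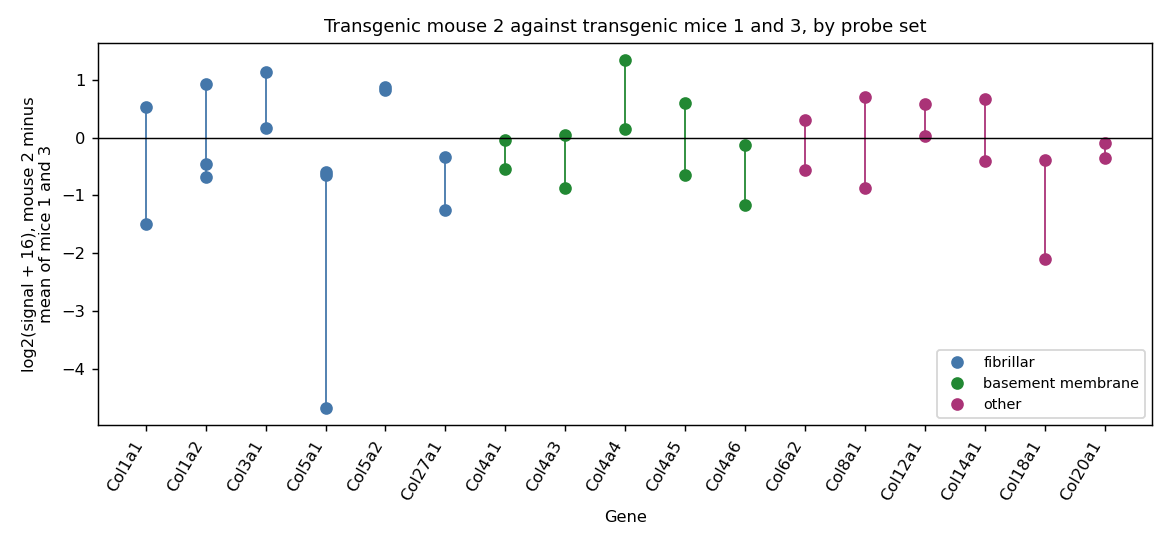
For each collagen gene with more than 1 tested probe set, the points give the log2 signal of transgenic mouse 2 minus the mean of transgenic mice 1 and 3, 1 point per probe set. Points of the same gene lie up to 4.07 apart (Col5a1), and those of Col5a2 lie 0.06 apart.

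Enzymes that modify, fold, trim and crosslink collagen were described from a list of 31, of which 23 were tested. Over 6 mice 1 rose and 1 fell, each 4.35% against 1.67% and 1.3% of all tested. Over 5 mice 1 rose and 3 fell, 4.35% and 13.0% against 6.96% and 6.23%, so the share that rose lay below that of all tested. Plod2, the lysyl hydroxylase of the collagen telopeptides, was 393.7, 332.6 and 351.7 in wild type and 1784.6, 2400.8 and 2450.6 in transgenic mice. All transgenic mice lay far above the wild type ones. It rose by log2 2.56 ± 0.23, or 5.89-fold (limma adjusted p = 0.0036), and by 2.49 ± 0.20 over 5 mice (6.21e-05). Pcolce2, an enhancer of procollagen trimming, was 829.1, 769.0 and 557.4 against 148.4, 45.1 and 176.3, and fell by 2.54 ± 0.47, 5.82-fold (limma adjusted p = 0.0396); leaving out any mouse other than transgenic mouse 2 raised this p, to at most 0.203, and ended the call. Over 5 mice it fell by 2.03 ± 0.22 (limma adjusted p = 0.00037). The list's median was -0.46, and -0.11 over 5 mice. Loxl1, a lysyl oxidase, and Plod3, another lysyl hydroxylase, did not pass over 6 mice, at -1.37 ± 0.53 (limma adjusted p = 0.272) and -1.44 ± 0.61 (0.309). Over 5 mice they fell by less, 0.75 ± 0.21 (limma adjusted p = 0.0481) and 0.68 ± 0.16 (0.0215), transgenic mouse 2 having the lowest signal of both (273.9 and 176.3).

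Of 16 proteoglycans and glycoproteins that bind collagen fibrils 15 were tested, with a median of -0.25 (-0.50 over 5 mice). Prelp, a leucine-rich proteoglycan that links collagen to basement membranes, was 7002.1, 6644.5 and 6293.8 in wild type and 911.6, 1140.6 and 1296.7 in transgenic mice, with a wide gap between the groups. It fell by 2.57 ± 0.19, 5.94-fold (limma adjusted p = 0.00234), and was at -2.59 ± 0.17 over 5 mice (2.41e-05). It was the only one of the list to pass over 6 mice (6.67% lower against 1.3% of all tested). Over 5 mice 5 fell, Prelp, Podn, Aspn, Fmod and Omd, and 1 rose, Epyc, or 33.3% and 6.67% against 6.23% and 6.96%. Epyc was at 1.18 ± 0.24 over 6 mice (limma adjusted p = 0.054) and rose by 1.02 ± 0.22 over 5 (0.0134).

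Of 10 collagen receptors 8 were tested and none passed over 6 mice, where 1 was higher and 1 lower at an unadjusted p under 0.05 (each 12.5% against 7.76% and 8.66% of all tested). Over 5 mice 2 rose and 1 fell, 25.0% and 12.5% against 6.96% and 6.23%. Their median was 0.33, and 0.29 over 5 mice. The brightest by the wild type mean were Itgb1, the shared beta subunit of collagen-binding integrins, and Ddr2, a receptor kinase for fibrillar collagen. Itgb1 was at -1.20 ± 0.96 over 6 mice, which rested on a signal of 172.6 in transgenic mouse 2 against 1994.8 and 2859.0 in mice 1 and 3. Without that mouse it was at 0.02 ± 0.18 (limma adjusted p = 0.956), so its sign turned. Ddr2 was at -0.17 ± 0.30 over 6 mice and -0.42 ± 0.20 over 5 (limma adjusted p = 0.215). Lair1, an inhibitory receptor of leukocytes, was at 0.96 ± 0.20 over 6 mice (limma adjusted p = 0.0645) and rose by 1.02 ± 0.20 over 5 (0.00891). Mrc2, which takes up collagen fragments, was at 0.54 ± 0.67 over 6 mice (limma adjusted p = 0.708) and rose by 1.35 ± 0.22 over 5 (0.00347). Its signal was 76.8 in transgenic mouse 2, below every other mouse, and 398.7 and 586.4 in mice 1 and 3. Itga1, an integrin chain, was at -0.71 ± 0.26 over 6 mice (limma adjusted p = 0.237) and fell by 0.89 ± 0.19 over 5 (0.0124). The higher macrophage marker sums stood beside these rises, and their part was not tested.

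Of 12 genes of collagen breakdown, a list that shares Mrc2 with the receptors, 11 were tested. Over 6 mice 1 fell (9.09% against 1.3% of all tested), and over 5 mice 4 rose and 3 fell (36.4% and 27.3% against 6.96% and 6.23%). The median was -0.08, and 0.01 over 5 mice. Timp4, a metalloproteinase inhibitor abundant in fat, was 3717.1, 4002.5 and 3331.4 in wild type and 211.0, 441.4 and 334.3 in transgenic mice. No values came near each other across the groups. It fell by 3.48 ± 0.30, 11.1-fold (limma adjusted p = 0.00327), and was at -3.71 ± 0.21 over 5 mice (9.13e-06). Mmp2, a protease that cuts collagen, was at 0.67 ± 0.38 over 6 mice (limma adjusted p = 0.443) and rose by 1.04 ± 0.23 over 5 (0.0174). Its signal was 706.7 in transgenic mouse 2, within the wild type range. Ctsk, the collagen-cutting cathepsin K, was at 1.14 ± 0.31 over 6 mice (limma adjusted p = 0.128) and rose by 1.26 ± 0.27 over 5 (0.0134). Timp1 and Mrc2 rose with them over 5 mice, and the protease Mmp9 and the inhibitors Timp3 and Timp4 fell.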

How the data were processed

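The authors deposited 1 linear signal intensity per probe set and array, made with MAS5, per the submitters' processing notes; the version, scaling target, any detection calls and the genome build are not given in the sources used. There were 6 columns of values and 0 of other samples. Probe sets were paired with genes by the platform annotation (34958 with 1 gene, 932 with several, 9211 with none).

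The log2 of the deposited intensity + 16 was compared between groups with limma 3.58.1 in R 4.3.3 (lmFit, eBayes with trend, two-sided, 4 residual degrees of freedom), adjusted by the Benjamini-Hochberg method over 27023 probe sets, and called below 0.05. Each adjusted p printed, also one standing alone in brackets, is from limma. Fold changes are on this scale and understate changes of dim genes. The fit was tested on simulated data. Tables were made with Python 3.11.15 and pandas 2.3.3. Each mouse is a separate animal, and p-values therefore cover the variation among mice together with handling, and 3 mice per group limit the precision.

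The collagens and all lists were chosen with earlier results of these data known. Named were every collagen that passed with or without transgenic mouse 2, the brightest tested probe set of each gene with any that disagreed, and of each partner list up to 4 members that passed with the largest change, or otherwise the 2 brightest; further partner genes are named for the fit over 5 mice. Partner and marker genes are represented by their tested probe set with the highest mean. Alternatives were 2 other offsets (1 and 64), no filter, a filter of 60%, quantile normalization, median centring, eBayes without trend or robust, array weights, a replicate block, the mean over a gene's probe sets, each mouse left out, and transgenic mouse 2 left out with quantile normalization.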

Additional observations from a re-analysis of the deposited data

How the results depend on the processing

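Over 18 alternatives none of the 866 recomputed collagen values reversed a call. Only 1 collagen probe set was called over 6 mice, so there was little to reverse. The 866 also hold a gene's mean once for each of its probe sets. Of these values 41 gained the threshold and 3 lost it, the latter being Col27a1 (1429549_at) without wild type mouse 1, 2 or 3. That probe set was called in 15 of 18 alternatives, with a log2 fold change of 1.93 to 2.65. The sign changed with neither value called in 35 values of 12 probe sets. With each mouse left out in turn, fibrillar collagens gave 0 to 2 higher, type IV 0 to 2 higher and 0 to 1 lower, and other collagens 0 to 5 lower, the highest counts coming without transgenic mouse 2. Array weights gave 2 fibrillar higher, 2 type IV higher and 1 lower, and 1 other higher and 5 lower; the share of all tested probe sets is not given here. Quantile normalization gave 2 fibrillar and 1 type IV higher, and median centring 2 fibrillar higher. Of all 27023 tested probe sets, quantile normalization gave 656 higher and 514 lower, and median centring 451 and 263. Without transgenic mouse 2 and with quantile normalization there were 2 fibrillar higher and 2 lower (12.5% each), 2 type IV higher and 4 lower (18.2% and 36.4%), and 1 other higher and 8 lower (4.55% and 36.4%). Of all tested, 8.94% were higher and 9.47% lower with this setting. The cause of these differences was not tested. The median of other collagens moved to -0.09 with no filter, which adds the dim probe sets. With the replicate block 1 fibrillar collagen was higher and 0 others passed. In their deviations from the group means, same-numbered mice correlated at -0.37, 0.09 and -0.05. With 3 arrays per group, that of transgenic mouse 2 among them, these values cannot show whether the numbers pair the mice. Signals near the offset of 16 lie close to background and limit what can be said of the 33 untested collagen probe sets. Some tested probe sets also fell this low on single arrays. Examples are Col12a1 1427391_a_at (9.6 in transgenic mouse 1) and Col2a1 (14.5 in wild type mouse 3), and the same limit holds there.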
